A study of Homo sapiens with 6 samples.

Results

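The genes described here are 39 genes of the apoptosis machinery, out of 27745 genes with a count in the table, listed by name, with no threshold on a measured value. They comprise the BCL2 family, the caspases with the adaptors and cofactors that switch them on, the mitochondrial proteins released during apoptosis and the inhibitors of apoptosis. All 39 were found in the table. A filter on low counts, which took out any gene below 5 counts in 3 or more of the 6 samples, left 37 of them among the 15372 genes tested. BCL2L10 and HRK did not pass it, with means of 0.833 and 3.33 counts per sample.

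The samples were MDA-MB-231 cells, an established line of triple-negative breast cancer with mesenchymal features, in which the long non-coding RNA MIR100HG was knocked down. Cells were infected with lentiviruses made from the pLKO.1 vector that carried one of 2 short hairpin RNAs against MIR100HG, or the control hairpin sh-TRC. The control samples are CTR1 and CTR2, the first hairpin, sh-MIR100HG-1, gave samples KD1-1 and KD1-2, and the second, sh-MIR100HG-2, gave samples KD2-1 and KD2-2. Total RNA was sequenced, with 2 samples per group and no further genotype, treatment or time point in the labels. The study calls the samples of one hairpin biological replicates, the labels do not say how they were separated, and p-values measure the spread between these samples only.

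Apoptosis through mitochondria is set by binding between BCL2 family proteins. The guardians, such as BCL2, BCL-XL (from BCL2L1) and MCL1, hold back the effectors BAX and BAK, which otherwise open the outer mitochondrial membrane. BH3-only proteins, such as BIM, PUMA and BMF, carry stress signals and act by occupying the guardians or by triggering the effectors. Once the membrane opens, cytochrome c joins APAF1 and caspase 9 in the apoptosome, whereas death receptors start the cascade at the cell surface through FADD, TRADD and caspase 8. XIAP and related proteins restrain active caspases. Much of this machinery is controlled at the level of protein, cleavage and location, which RNA counts do not show.

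MIR100HG is also the host transcript of 3 microRNAs, and their mature sequences are shown because the 3′ untranslated regions (UTRs) of the members can be read for matching letters. The sequences are those of RefSeq, written 5′ to 3′, and the capitals mark the seed (bases 2 to 8), which differs between all 3.
miR-100-5p: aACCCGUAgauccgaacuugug
miR-125b-5p: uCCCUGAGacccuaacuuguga
let-7a-5p: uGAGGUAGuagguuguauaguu
The letters CTCAGGG, complementary to the miR-125b-5p seed, stood in the longest annotated 3′ UTR of 13 of 37 members (35.1%), against 17.2% of the 14008 tested genes with an annotated 3′ UTR. The let-7a-5p match CTACCTC stood in 4 of 37 members (10.8%), against 11.8% of all such genes. The miR-100-5p match TACGGGT was in none of the 37, against 1.36% of all such genes. Only the transcript's own strand was searched. MicroRNA levels were not measured in these libraries, and a run of matching letters is a description and not a site of action. By qPCR the paper reports no change in the hosted microRNAs when MIR100HG was overexpressed in MDA-MB-231 cells. It proposes that MIR100HG did not act through them.

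The matches in members whose values are described below were read from the GRCh37 genome on the strand of the gene, with the seed match in capitals. BMF holds 3 of them, BAK1 holds 2, and MCL1, APAF1 and BCL2 hold 1 each.
BMF, chr15:40383347-40383369, minus strand: cagcagacCTCAGGGagggttga
BMF, chr15:40382531-40382553, minus strand: aagaagacCTCAGGGctacccaa
BMF, chr15:40382137-40382159, minus strand: attctattCTCAGGGtgtgtacc
BAK1, chr6:33540936-33540958, minus strand: gttggactCTCAGGGattctggg
BAK1, chr6:33540483-33540505, minus strand: taggtctcCTCAGGGtggggggt
MCL1, chr1:150547224-150547246, minus strand: acgcttctCTCAGGGaaaaacat
APAF1, chr12:99126716-99126738, plus strand: ggctgtgcCTCAGGGtagcagtg
BCL2, chr18:60793425-60793447, minus strand: cggcgggcCTCAGGGaacagaat
The other members with CTCAGGG in the 3′ UTR were BOK, BIK, BCL2L12, BCL2L13, CASP2, CASP9, CASP10 and RIPK1. The let-7a-5p match was held by BCL2L1, CASP1, CFLAR and AIFM1, and the match in CASP1 and both matches in CFLAR are shown because these genes are described below.
CASP1, chr11:104896992-104897014, minus strand: agatgtttCTACCTCttcccagg
CFLAR, chr2:202032573-202032595, plus strand: ctaattacCTACCTCtggacttt
CFLAR, chr2:202036559-202036581, plus strand: catatctcCTACCTCtggatctt

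The libraries held between 43804736 and 64588388 counts, and MIR100HG itself checked the labels, with 41.9 and 58.5 CPM (counts relative to the library size scaled by TMM) in CTR1 and CTR2 against 10.4 to 16.6 CPM in the 4 knockdown samples. Its log2 fold change of −1.86 ± 0.25 had an edgeR adjusted p of 0.381, so the silenced gene itself did not pass the adjusted threshold either. VIM, a mesenchymal marker, stood at 1607 to 2095 CPM and PGR, the progesterone receptor, at 0 to 0.0236 CPM. KRT8, an epithelial keratin, was also high, at 709.8 to 1177 CPM. The RNA of ERBB2, which encodes HER2, stood at 71.6 to 116.2 CPM and that of the luminal factor GATA3 at 9.876 to 12.98 CPM. The libraries did not group by hairpin. Over all tested genes the closest pair was CTR1 with KD1-1 (median absolute log2 difference 0.213), whereas replicates of one hairpin lay 0.30 to 0.367 apart. CTR2 and KD1-1 alone held raised ESR1 (2.38 and 2.79 CPM, against at most 0.590 CPM in the other 4), with FOXA1, SOX10 and MS4A1 raised in the same libraries. The mitochondrially encoded mRNAs took 1.52% and 1.84% of counts in the sh-MIR100HG-2 samples and 2.41% to 3.46% in the other 4. The deviation of a gene from its mean over samples followed the GC content of its exons to a different extent in each library, with Spearman's rho across genes from −0.37 in KD1-2 to 0.385 in CTR2. The part of these library features in the values below was not tested, except where a value without them is given.

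Levels between members were compared as TMM-scaled CPM per kilobase of gene length, averaged over the 6 samples. BCL2L1, which encodes the guardian BCL-XL, had the highest level of the 37, at 273.2 ± 61.5 CPM per kb (SD, n = 6), and its lowest sample lay above the highest sample of every other member. MCL1, a short-lived guardian, followed at 146.4 ± 27.2 CPM per kb, and PMAIP1, which encodes the BH3-only protein NOXA that binds MCL1, at 129.3 ± 21.4 CPM per kb. MCL1 and PMAIP1 overlapped in their sample ranges, and both lay above the next member. FADD, the adaptor between death receptors and caspase 8, stood at 65.9 ± 16.7 CPM per kb, and the effectors BAK1 and BAX at 58.8 ± 21.4 and 41.03 ± 5.37 CPM per kb. From FADD downwards each member overlapped the next in the order, as far as DIABLO. BCL2 itself was the lowest of the 37 by this measure, at 0.414 ± 0.189 CPM per kb, and it was the one member below DIABLO with no overlap. Its last place depended on the division by gene length. In mean counts per sample BCL2A1 lay below it, at 77.5 against 267.3. Among the BH3-only genes, BAD, BID, BBC3, BMF, BIK and BCL2L11 followed PMAIP1 at 3.03 to 16.7 CPM per kb. The initiator caspases lay low in the order, with CASP8 at 5.83, CASP2 at 5.21, CASP9 at 2.004 and CASP10 at 1.97 CPM per kb. These places also depended in part on the division by gene length. In mean counts per sample CASP8 (2205) and CASP2 (2244) lay above BAD (1505) and BBC3 (1603), while CASP9 (552.7) and CASP10 (775.2) lay below them.

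**Figure D1:**
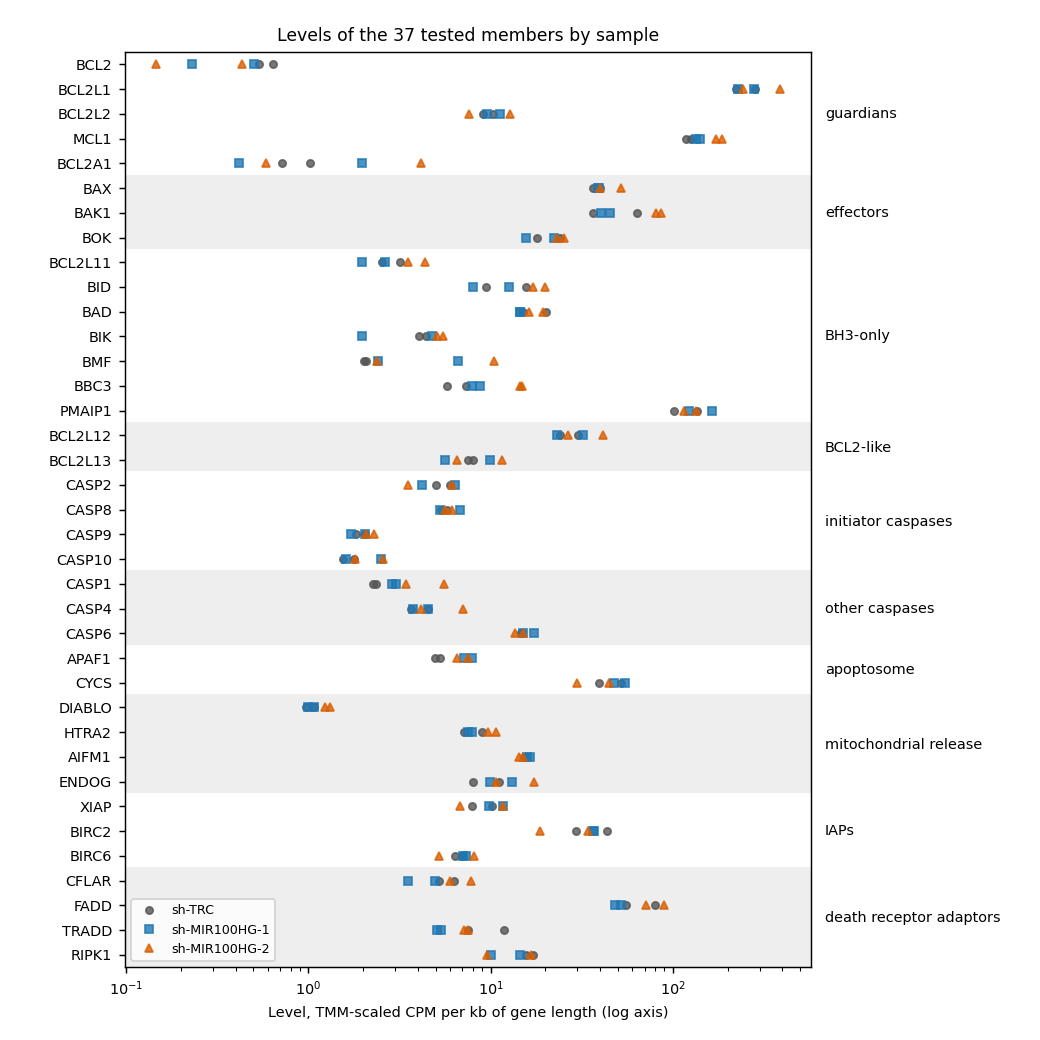
Level of each of the 37 tested members in each of the 6 samples, as TMM-scaled CPM per kb of gene length on a log axis, with the members grouped by role and the symbols showing the group. BCL2L1 lies at 222 to 388 CPM per kb in all 6 samples and BCL2 at 0.146 to 0.637 CPM per kb.

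In every library a pair of genes made up most of the guardian RNA. BCL2L1 took 63.1% ± 5.03 (SD, n = 6) of the summed guardian level and MCL1 34.1% ± 4.35, and the share of BCL2L1 was lowest in KD2-1 (54.3%) and highest in KD2-2 (68.2%). BCL2L2, which encodes BCL-W, took 2.42%, BCL2A1 0.34% and BCL2 0.1%. Without the division by gene length the shares were 56.6% for BCL2L1 and 40.3% for MCL1, in the same order. BCL2 and BCL2A1 changed places, at 0.33% and 0.1%. The shares of BCL2L1 in CTR1 and CTR2, 63.1% and 67.3%, lay within the range of the knockdown samples.

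The first comparison asked whether knockdown of MIR100HG, taken as the mean of both hairpins, altered these genes. BMF, BBC3, CASP1 and APAF1 were higher at an unadjusted p under 0.05 and TRADD was lower, but no member passed the adjusted threshold of 0.05 by edgeR's quasi-likelihood test. The smallest Benjamini-Hochberg adjusted p of the 37 was 0.476. The same held for all genes: 0% of the 15372 were called. At an unadjusted p under 0.05, 4 of 37 members (10.8%) were higher, against 3.23% of all genes, and 1 of 37 (2.70%) was lower, against 4.44%. The median log2 fold change was 0.12 over the 37 members, with 26 higher and 11 lower, and −0.04 over all genes, of which 45.6% were higher. DESeq2 called none of the 37 and 129 of all genes in this comparison. In the RNA of a whole culture, fewer cells that express a gene and less RNA per cell cannot be told apart.

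BMF, a BH3-only gene at chromosome 15, 40380091 to 40401093 of GRCh37 on the minus strand, had the highest fold of the 37 members. Its values were 11.3 and 10.96 CPM in CTR1 and CTR2, 13.1 and 36.0 CPM in KD1-1 and KD1-2, and 13.03 and 56.9 CPM in KD2-1 and KD2-2. The 4 knockdown samples lay above both controls, but KD1-1 and KD2-1 by 1.18- and 1.17-fold of the control mean and KD1-2 and KD2-2 by 3.24- and 5.12-fold. The mean of both hairpins was 2.63-fold higher (log2 fold change 1.397 ± 0.599, SE; unadjusted p = 0.0467, edgeR adjusted p = 0.645). Without KD2-2 the log2 fold change was 0.68. Without CTR2 and KD1-1 together it was 1.65, and without the filter on low counts the adjusted p was 0.000199 by the same edgeR test.

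BBC3 encodes PUMA, a BH3-only protein, and lies at chromosome 19, 47724079 to 47736023, on the minus strand. It stood at 23.3 and 18.4 CPM in the controls, 25.03 and 27.8 CPM with sh-MIR100HG-1 and 47.1 and 46.1 CPM with sh-MIR100HG-2. Both hairpins lay above both controls, and the sh-MIR100HG-2 samples lay far above the other 4. Against control the log2 fold change was 0.75 ± 0.21 for both hairpins together (edgeR adjusted p = 0.476), 0.34 ± 0.23 for the first and 1.16 ± 0.23 for the second, a 2.24-fold difference. The difference with sh-MIR100HG-2 had an edgeR adjusted p of 0.406. The likelihood ratio test of edgeR gave an adjusted p of 0.0154 and DESeq2 one of 0.00132. Leaving out single libraries gave log2 fold changes of 1.002 to 1.343 for sh-MIR100HG-2 against control.

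APAF1, the scaffold of the apoptosome, had similar values with both hairpins. It lies at chromosome 12, 99038919 to 99129211, on the plus strand, and exons of ANKS1B on the opposite strand cover 9.48% of its counted length. The level was 39.1 and 42.0 CPM in the controls, 56.4 and 62.8 CPM with sh-MIR100HG-1 and 59.4 and 51.7 CPM with sh-MIR100HG-2. Each of the 4 knockdown libraries was above both controls, by 1.27- to 1.55-fold of the control mean. The log2 fold change was 0.51 ± 0.19 for both hairpins together, with an unadjusted p of 0.0255 and an edgeR adjusted p of 0.606. CYCS, which encodes the cytochrome c that binds APAF1, stood at −0.07 ± 0.23 in the same comparison, with 176 and 231 CPM in the controls and 133 to 243 CPM in the knockdown samples.

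CASP1, which encodes an inflammatory caspase that matures interleukin-1, stood at 8.42 and 8.73 CPM in the controls, 10.7 and 11.2 CPM with sh-MIR100HG-1 and 20.6 and 12.7 CPM with sh-MIR100HG-2. KD2-1 was the highest library and no knockdown sample reached down to the controls. The log2 fold change was 0.65 ± 0.27 for both hairpins together (edgeR adjusted p = 0.642). For sh-MIR100HG-2 alone it was 0.96 ± 0.30, and 0.57 without KD2-1. CASP1 has neighbouring genes of similar sequence, and how reads shared with them were counted was not tested. The related CASP4 had a log2 fold change of 0.24 ± 0.26, and CASP6, which cleaves lamins, one of 0.05 ± 0.19.

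TRADD, the adaptor of the TNF receptor, was the member lower at an unadjusted p under 0.05. It stood at 19.2 and 30.4 CPM in CTR1 and CTR2, 13.7 and 13.04 CPM in KD1-1 and KD1-2, and 19.3 and 18.5 CPM in KD2-1 and KD2-2. The sh-MIR100HG-1 samples lay below all others, whereas the sh-MIR100HG-2 samples lay about level with CTR1. The log2 fold change was −0.64 ± 0.24 for both hairpins together (edgeR adjusted p = 0.606) and −0.89 ± 0.28 for sh-MIR100HG-1. Without CTR2 these values were −0.27 and −0.52. The other members of the death receptor role, RIPK1, CFLAR and FADD, had log2 fold changes of −0.37 ± 0.26, −0.09 ± 0.22 and −0.09 ± 0.21 for both hairpins together. All 4 genes of this role thus had a value below 0 for the mean of both hairpins, while 45.6% of all genes had one above 0. The hairpins differed in this. All 4 lay below 0 with sh-MIR100HG-1, whereas with sh-MIR100HG-2 2 lay below 0 and 2 above it (CFLAR at 0.26 ± 0.26 and FADD at 0.26 ± 0.25).

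MCL1 and BCL2 were the remaining members in which all 4 knockdown samples lay beyond both controls. MCL1 stood at 519.5 and 547.5 CPM in the controls, 582.9 and 619.5 CPM with sh-MIR100HG-1 and 815.7 and 753.8 CPM with sh-MIR100HG-2. The groups did not overlap, and the log2 fold change was 0.17 ± 0.19 with the first hairpin and 0.56 ± 0.19 with the second (edgeR adjusted p = 0.513). BCL2 stood at 6.33 and 7.49 CPM in the controls, 5.92 and 2.69 CPM in KD1-1 and KD1-2, and 5.07 and 1.72 CPM in KD2-1 and KD2-2. The values of BCL2 were lowest in KD1-2 and KD2-2, the libraries in which BMF was highest. The log2 fold change of BCL2 was −0.85 ± 0.47 for both hairpins together (edgeR adjusted p = 0.704). In all, 5 of 37 members (13.5%) had all 4 knockdown samples above both controls, against 8.40% of all genes, and 1 of 37 (2.70%) had them below, against 9.08%.

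**Figure D2:**
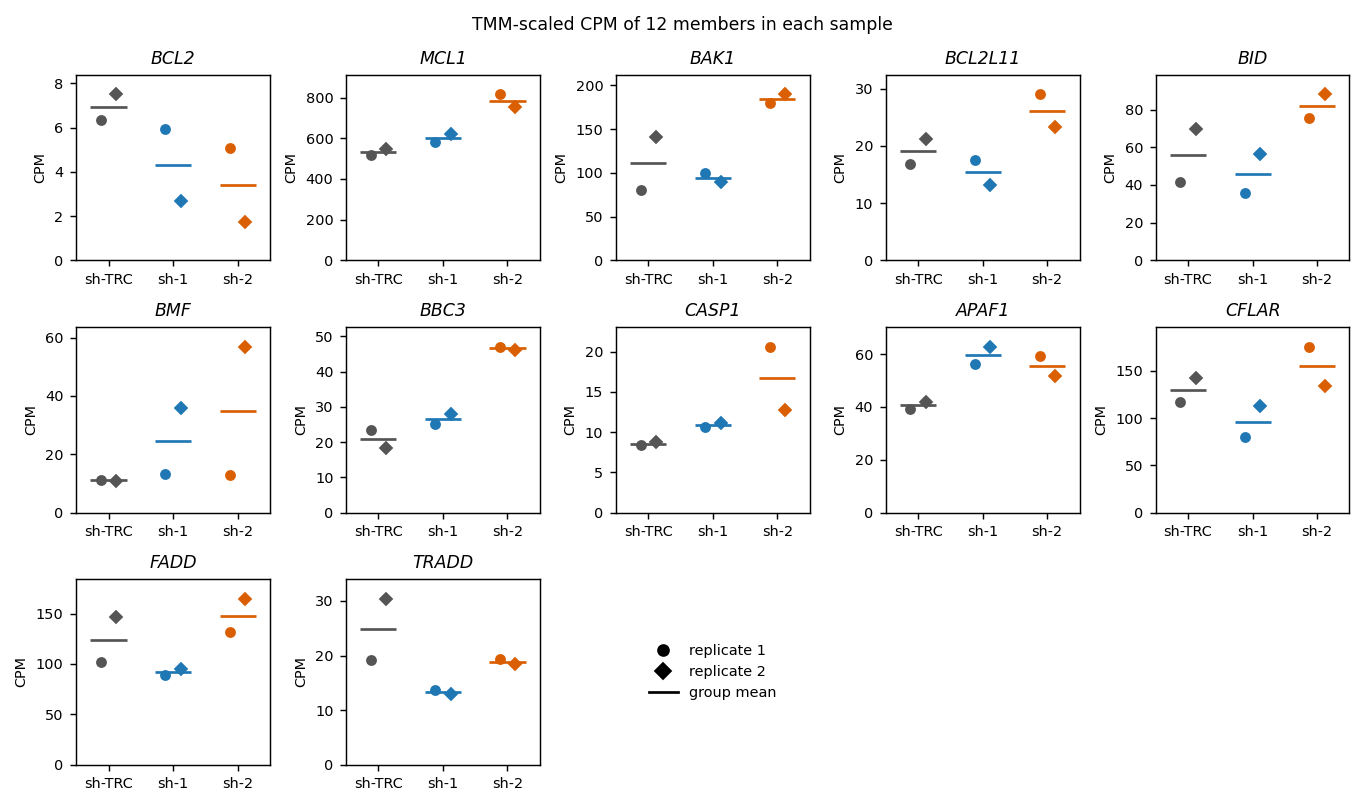
TMM-scaled CPM in each sample for the 12 members with an unadjusted p under 0.05 in any comparison or with all 4 knockdown samples beyond both controls, each panel starting at 0. Columns are sh-TRC, sh-MIR100HG-1 (sh-1) and sh-MIR100HG-2 (sh-2), circles and diamonds are replicates 1 and 2 and lines are group means, and BMF is high in the second replicate of both hairpins only, at 36.0 and 56.9 CPM.

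These counts of members depended on single libraries. The 4 members higher with knockdown became 1 without CTR1 (BBC3), 1 without CTR2 (BAK1) and 1 without KD1-2 (BBC3), and 2 without KD2-1 (BBC3 and BMF). The 1 lower member, TRADD, became 3 without KD2-1 (BCL2, RIPK1 and TRADD), more than the members higher in that fit, 2 without KD1-1 (BCL2 and TRADD) and 0 without CTR2 or without KD1-2. Without CTR2 and KD1-1 together, 1 was higher (BMF) and none lower. With each library's trend with GC content taken out, a step added after seeing the data, 4 were higher (APAF1, BBC3, CASP1 and ENDOG) and none lower, against 4.76% and 4.78% of all genes under that fit, and BMF and TRADD had an unadjusted p of 0.056 and 0.053 by edgeR's quasi-likelihood test. BBC3 was thus past the unadjusted threshold in 5 of the 6 fits that left out 1 library.

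Each hairpin was then compared with the same 2 controls, so the values of both hairpins share those libraries. With sh-MIR100HG-1, 1 of 37 members was higher at an unadjusted p under 0.05 (APAF1), against 3.10% of all genes, and 1 was lower (TRADD), against 3.77%. With sh-MIR100HG-2, 5 of 37 (13.5%) were higher (BAK1, BBC3, BMF, CASP1 and MCL1), against 3.71% of all genes, and none was lower, against 5.15%. None of the 37 passed the adjusted threshold in either comparison by edgeR's quasi-likelihood test, where 0% of all genes were called, and DESeq2 called none of the 37 and 65 of all genes with the first hairpin, and 1 of the 37 (BBC3) and 165 of all genes with the second. The smallest adjusted p by edgeR was 0.714 with the first hairpin and 0.406 with the second. The median log2 fold change of the 37 was 0.02 with the first and 0.26 with the second, beside 0.00 and −0.04 over all genes. Without CTR1, 1 member was higher with sh-MIR100HG-2 (BBC3) and none was lower. The absence of lower members with sh-MIR100HG-2 did not hold without KD2-1, nor under some other fits that kept KD2-1. With a replicate block, 6 members were higher with sh-MIR100HG-2 and 1 was lower (BCL2).

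By role, the 7 tested BH3-only genes all had a value above 0 with sh-MIR100HG-2, from 0.02 for BAD to 1.65 for BMF on the log2 scale. With sh-MIR100HG-1, 3 of 7 did. Over all genes 45.8% lay above 0 with sh-MIR100HG-2 and 49.7% with sh-MIR100HG-1. BAK1, BAX and BOK, the effectors, had log2 fold changes of 0.73 ± 0.28, 0.26 ± 0.22 and 0.21 ± 0.26 with sh-MIR100HG-2 and of −0.23 ± 0.28, 0.03 ± 0.22 and −0.15 ± 0.26 with sh-MIR100HG-1. The guardians had 4 of 5 values above 0 with either hairpin, and BCL2 was the exception with both. XIAP, BIRC2 and BIRC6, the inhibitors of apoptosis, lay at 0.25 ± 0.30, 0.01 ± 0.32 and 0.11 ± 0.25 with sh-MIR100HG-1 and at 0.03 ± 0.30, −0.46 ± 0.32 and −0.01 ± 0.25 with sh-MIR100HG-2. Except for BAK1, BMF, BBC3 and MCL1 with sh-MIR100HG-2, none of the values in these roles had an unadjusted p under 0.05.

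**Figure D3:**
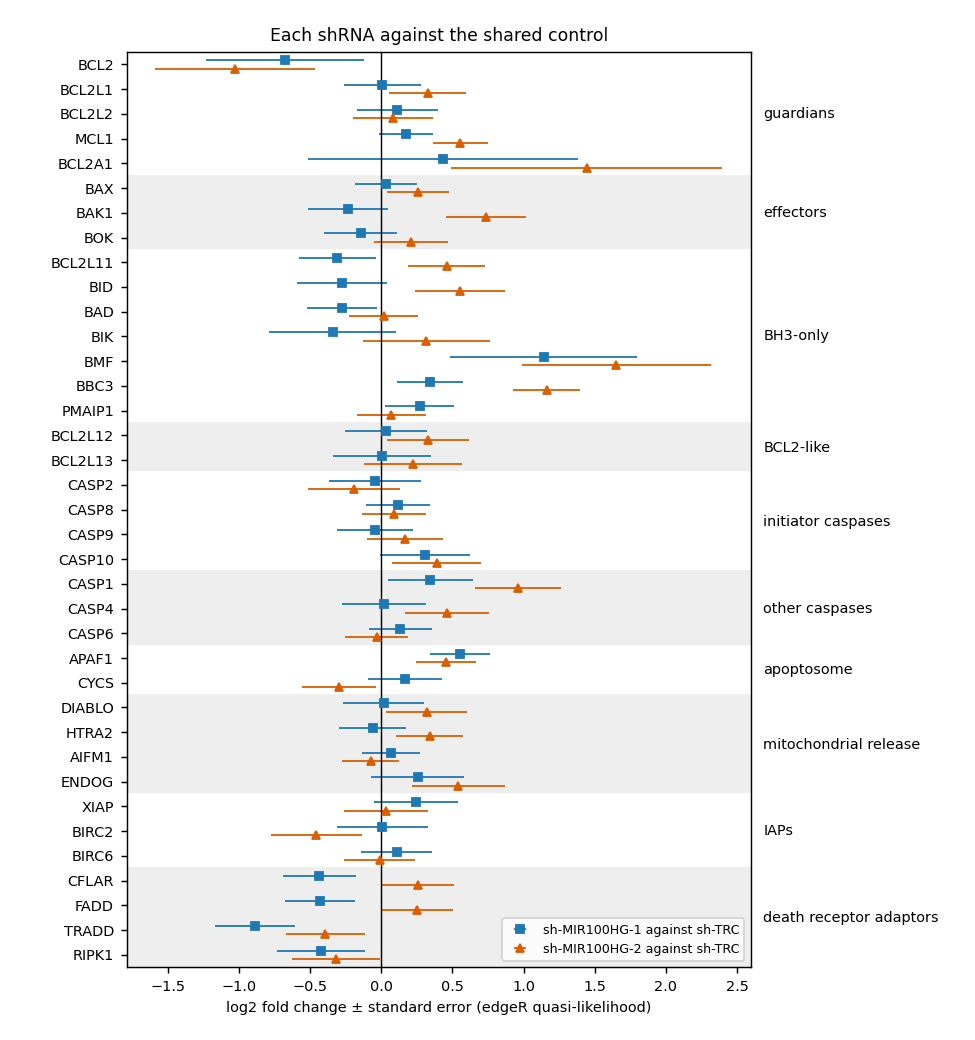
Log2 fold change of each of the 37 tested members with either hairpin against the 2 shared control samples, with bars of 1 standard error from edgeR's quasi-likelihood fit and members grouped by role. The 7 BH3-only genes lie above 0 with sh-MIR100HG-2, and BBC3 stands at 1.16 with that hairpin and 0.34 with the other.

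The remaining 25 tested members had log2 fold changes of −0.37 (RIPK1) to 0.94 (BCL2A1) for knockdown against control, of which 19 lay within 0.2 of 0, and their unadjusted p ran from 0.195 to 0.991. BCL2A1, a guardian induced by NF-kB, was both low and uneven, with 0.452 to 4.54 CPM over the 6 samples and a standard error of 0.85. BIK, another BH3-only gene with low counts, stood at 1.88 CPM in KD1-1 and 3.85 to 5.22 CPM in the other 5 samples. CASP8, the initiator caspase of the death receptors, stood at 38.3 to 49.1 CPM and CASP9, that of the apoptosome, at 9.07 to 12.1 CPM, with log2 fold changes of 0.11 ± 0.20 and 0.06 ± 0.23. CASP10, an initiator caspase close to CASP8 in sequence, reached 19.1 and 19.5 CPM in KD1-2 and KD2-2 and 11.8 to 13.7 CPM in the other 4 samples. CASP2, an initiator caspase linked to DNA damage, showed the opposite order, with 34.0 and 28.1 CPM in KD1-2 and KD2-2 and 40.2 to 51.5 CPM in the others.

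Of the proteins that leave the mitochondria, AIFM1, the apoptosis-inducing flavoprotein, had the steadiest RNA, at 47.6 to 54.7 CPM, and a log2 fold change of 0.00 ± 0.17. HTRA2, a protease that removes inhibitors of apoptosis, stood at 0.14 ± 0.20, DIABLO, an antagonist of XIAP, at 0.17 ± 0.25, and ENDOG, a nuclease, at 0.40 ± 0.29. Exons of other genes cover 36.9% of the counted length of HTRA2, 35.4% of DIABLO and 39.3% of ENDOG. BAD, BCL2L12, BCL2L2, CASP6, CASP9 and TRADD also share exon bases with neighbours, and since no source states whether strand was used in counting, reads of such pairs may not be told apart. CASP2 and RIPK1, with 3′ UTR matches to miR-125b-5p, were among the members below 0 in the knockdown comparison, at −0.12 ± 0.28 and −0.37 ± 0.26. Over the 13 members with that match the median log2 fold change was 0.12, with 9 above and 4 below 0, and over the 24 without it 0.12, with 17 above and 7 below.

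The hairpins were also compared with each other. BAK1, BBC3, BCL2L11, BID, CFLAR and FADD were higher with sh-MIR100HG-2 than with sh-MIR100HG-1 at an unadjusted p under 0.05, and no member was lower. These were 6 of 37 (16.2%), against 3.34% of all genes higher and 6.12% lower. None of the 37 passed the adjusted threshold, where edgeR called 0% of all genes, and DESeq2 called none of the 37 and 103 of all genes. The smallest adjusted p of the members was 0.509. Both sh-MIR100HG-2 samples lay above both sh-MIR100HG-1 samples for 16 of 37 members (43.2%), against 20.6% of all genes, and below for 3 (8.11%), namely AIFM1, BIRC2 and CYCS, against 23.3%. The median log2 difference was 0.29 over the members and −0.01 over all genes.

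BAK1, which encodes the effector BAK at chromosome 6, 33540324 to 33548070, on the minus strand, had the highest log2 difference of the 6. It stood at 99.7 and 89.1 CPM with sh-MIR100HG-1 and at 180 and 190 CPM with sh-MIR100HG-2, while the controls CTR1 and CTR2 stood at 80.5 and 141.5 CPM. The sh-MIR100HG-2 samples lay above the other 4, and the controls were farther apart than the samples of either hairpin. The difference between hairpins was 1.96-fold (log2 0.97 ± 0.28; unadjusted p = 0.00844, edgeR adjusted p = 0.509). It stayed between 0.91 and 1.05 when single libraries were left out, with unadjusted p of at most 0.0448. Against the controls, sh-MIR100HG-2 had a log2 fold change of 0.73, which was 0.38 without CTR1 and 1.20 without CTR2.

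BCL2L11, which encodes the BH3-only activator BIM, stood at 17.5 and 13.2 CPM with sh-MIR100HG-1 and 29.0 and 23.4 CPM with sh-MIR100HG-2. The controls, at 16.9 and 21.2 CPM, lay below the sh-MIR100HG-2 samples and overlapped with the sh-MIR100HG-1 samples. The log2 difference between hairpins was 0.77 ± 0.27 (edgeR adjusted p = 0.509). BID, which links caspase 8 to mitochondria, stood at 35.7 and 56.3 CPM with sh-MIR100HG-1, 75.6 and 88.0 CPM with sh-MIR100HG-2 and 41.7 and 69.6 CPM in the controls. Its log2 difference of 0.83 ± 0.32 became 0.54 without KD1-1. BBC3, described above, differed by 0.82 ± 0.23.

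On the death receptor side, FADD and CFLAR had the same order of hairpins. FADD stood at 88.7 and 95.4 CPM with sh-MIR100HG-1, 131 and 165 CPM with sh-MIR100HG-2 and 102 and 146 CPM in the controls. CFLAR, which encodes the caspase 8 inhibitor FLIP, stood at 79.5 and 112 CPM, 176 and 135 CPM, and 117 and 142 CPM in these groups. For both genes the sh-MIR100HG-1 samples lay below both controls, and the sh-MIR100HG-2 samples overlapped with the controls. The log2 difference between hairpins was 0.69 ± 0.25 for FADD and 0.69 ± 0.26 for CFLAR. The summed level of FADD, CFLAR, TRADD and RIPK1 was 71.5 and 71.9 CPM per kb with sh-MIR100HG-1 and 83.5 to 115 CPM per kb in the other 4 samples. Most of this sum was FADD itself, at 48.2 and 51.8 CPM per kb with sh-MIR100HG-1 and 55.1 to 89.4 CPM per kb in the other 4 samples.

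Of the 3 members that lay lower with sh-MIR100HG-2, AIFM1 had a log2 difference of −0.14 ± 0.20. CYCS stood at 243 and 213 CPM with sh-MIR100HG-1 and 199 and 133 CPM with sh-MIR100HG-2 (log2 difference −0.46 ± 0.26). BIRC2, which encodes cIAP1, a ubiquitin ligase of the TNF receptor complex, stood at 165 and 167 CPM and at 156 and 85.2 CPM (−0.46 ± 0.32). XIAP and BIRC6 lay at −0.22 ± 0.30 and −0.12 ± 0.25, so all 3 inhibitors of apoptosis had a value below 0 in this comparison, none of them at an unadjusted p under 0.05. Of all genes, 49% lay above 0 here.

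The difference between hairpins followed GC content. Over all genes the median log2 difference ran from −0.35 in the 3075 genes with the lowest exon GC content to 0.18 in the 3075 with the highest. The 16 members that lay above with sh-MIR100HG-2 had a median GC content of 57.2%, against 43.1% in the 3 that lay below and 48.5% over all genes. When each library's trend with GC content was taken out, 9 of 37 members were higher with sh-MIR100HG-2 at an unadjusted p under 0.05 and none was lower, against 3.06% and 5.34% of all genes under that fit. The 9 held all 6 members named above together with MCL1, CASP1 and CASP4. The median log2 difference of the 37 members became 0.17, against −0.02 over all genes. Without KD1-1, or without CTR2 and KD1-1 together, the 6 members became 2, BAK1 and BCL2L11. Here too the absence of lower members did not hold without KD2-1, nor with a replicate block that kept KD2-1, where CYCS was lower. The mitochondrial share of counts, lower in both sh-MIR100HG-2 samples, cannot be told apart from the hairpin.

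**Figure D4:**
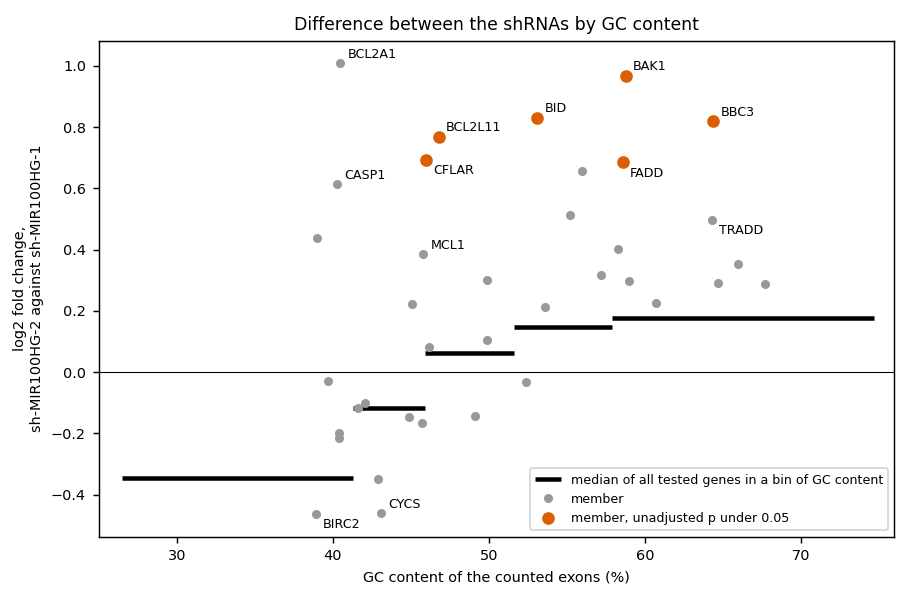
Log2 difference between the hairpins (sh-MIR100HG-2 minus sh-MIR100HG-1) for each of the 37 tested members, plotted over the GC content of the counted exons in percent, with black bars for the median of all tested genes in each of 5 bins of GC content. The bars climb from −0.35 to 0.18, and the 6 members with an unadjusted p under 0.05 (larger orange points) lie between 0.69 and 0.97.

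Other genes of apoptosis were read from a wider list of 41 genes, which covers further BCL2-like genes, death receptors and their ligands and mitochondrial channels. Of the 36 tested, none was called in the knockdown comparison by edgeR, 3 were higher at an unadjusted p under 0.05 and none was lower, beside 3.23% and 4.44% of all genes. The median log2 fold change was 0.14, with 25 above and 11 below 0, beside −0.04 over all genes, of which 45.6% lay above 0. TNFRSF10A, which encodes the TRAIL receptor DR4, had the smallest p. It stood at 74.3 and 68.9 CPM in the controls, 94.5 and 126 CPM with sh-MIR100HG-1 and 104 and 124 CPM with sh-MIR100HG-2, with every knockdown sample above both controls (log2 fold change 0.65 ± 0.20, edgeR adjusted p = 0.545). VDAC1, the mitochondrial anion channel, was also among the 3, at 0.45 ± 0.19. TMBIM6, an inhibitor of BAX in the endoplasmic reticulum, had a log2 fold change of 0.34 ± 0.17, and the TRAIL decoy receptors TNFRSF10D and TNFRSF10C had 0.70 ± 0.34 and −0.57 ± 0.37. PMAIP1 and BAX, among the members, stood at 0.17 ± 0.21 and 0.15 ± 0.19 in the same comparison.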

How the data were processed

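Total RNA of 6 MDA-MB-231 samples (2 with sh-TRC, 2 with each hairpin) was sequenced. The authors mapped reads to GRCh37 with STAR (2.5.2a in the submitters' processing notes), assigned them to GENCODE exons with FeatureCounts and deposited raw counts per gene, with no normalization. Whether strand was used in counting is not given in the sources used here. Genes with fewer than 5 counts in at least 3 samples were removed, libraries were scaled by TMM, and all 3 groups were fitted with edgeR 4.0.16 (glmQLFit, glmQLFTest; R 4.3.3), giving 3 residual degrees of freedom and a common biological coefficient of variation of 27.8%. Standard errors are the log2 fold change divided by the root of the F statistic. Calls required a Benjamini-Hochberg adjusted p of at most 0.05 over 15372 genes. The procedure was tested on simulated data.

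Members and lists were chosen with earlier results of these data known. Members with an unadjusted p under 0.05 in any of 4 comparisons, or with all 4 knockdown samples beyond both controls, were described in full, others by ranges, and genes of a wider list by smallest p in the knockdown comparison. Results that need a withheld item are not reported here. Alternatives were RLE scaling, no filter, the likelihood ratio test, DESeq2 1.42.0, a bias-adjusted fit, a replicate block, only the groups compared and single libraries left out. A crossed block, a correction for exon GC content and leaving out CTR2 with KD1-1 were added after seeing the data. Seed matches were searched in the longest annotated 3′ UTR of GENCODE v44lift37 on GRCh37. MicroRNA sequences came from RefSeq for GRCh38.p14. Depth was 43804736 to 64588388 counts per library.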

Additional observations from a re-analysis of the deposited data

Results flagged for a closer look

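For 8 of the 37 tested members both samples of one hairpin lay above the control mean of log2 CPM and both of the other below it. The share of all tested genes, 14.6%, was taken against the control mean of CPM instead. By that mean BIRC2 did not show the pattern, with 165.2 CPM in KD1-1 against a control mean of 165.5 CPM. Each difference below is sh-MIR100HG-2 minus sh-MIR100HG-1 on the log2 scale, by edgeR's quasi-likelihood test. BAK1 differed by 0.968 (unadjusted p = 0.00844), BCL2L11, which encodes BIM, by 0.768 (0.0212), CFLAR by 0.693 (0.0265) and FADD by 0.685 (0.0238), each with an edgeR adjusted p of 0.509. HTRA2 differed by 0.401 (edgeR adjusted p = 0.586), CYCS by −0.461 (0.578), BIRC2 by −0.463 (0.629) and AIFM1 by −0.142 (0.813). None passed the adjusted threshold. Groups of 2 samples were not examined for samples far from the others.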

How the results depend on the processing

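The counts of called members were 0 in each of the 4 comparisons under RLE scaling, the bias-adjusted fit, the fits of only the groups compared, the replicate block, the GC correction with and without that block, and with CTR2 and KD1-1 left out, and single libraries left out gave 0 to 0. Without the filter on low counts, 1 member was called with knockdown and 1 with sh-MIR100HG-1 (both BMF), 2 with sh-MIR100HG-2 (BMF and BBC3) and 1 between the hairpins (BAK1), beside 392, 227, 517 and 679 of all genes, where the fit with the filter called 0. With sh-MIR100HG-2, 1 member (BBC3) was called by the likelihood ratio test and 1 (BBC3) by DESeq2, beside 121 and 165 of all genes. The sign of the log2 fold change was followed for the 18 differences of members with an unadjusted p under 0.05 by edgeR's quasi-likelihood test. All 18 held their sign under all alternatives run. They were chosen by that p and refitted on the same libraries, so a held sign is no independent support. Members above that p, such as BCL2, CYCS and BIRC2, were not followed in this way.

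Replicate numbers were shared between groups but no label ties same-numbered samples, and their deviations correlated at −0.213 (control with sh-MIR100HG-1), 0.022 (control with sh-MIR100HG-2) and 0.497 (between hairpins). With the number as a replicate block, 0 members were called in each comparison, and at an unadjusted p under 0.05 there were 5 higher and 2 lower with knockdown and 7 higher and 1 lower (CYCS) between the hairpins. After the numbers of the control samples were exchanged in that block, 0 members were called.

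The common biological coefficient of variation between samples was 27.8%, with 2 samples per group. No p-value here separates hairpin from library. Fits without one library assume that a lone sample varies like the other groups.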
